A study of Mus musculus with 7 samples.

Results

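Sox17, Foxa1, Hhex, Gata4, Gata6, Sox7, Prdm1, Cxcr4 and Trh are 9 genes that are used to recognise definitive endoderm or the cells that form it, and they were taken by name from a table of 30590 rows. All 9 were present, and all 9 were among the 21813 genes tested. The cells were mouse embryonic stem cells of a line named Bry-GFP, in which GFP reports the Brachyury gene by the usual meaning of that name, and they were followed by bulk sequencing of polyadenylated RNA at 4 times. Day 0 was the stem cell culture, grown on mouse embryonic fibroblast feeders in serum with LIF at 1000 units per mL. Day 2 was embryoid bodies, suspended aggregates that formed over 48 h without serum or feeders from 75000 cells per mL. Day 4 followed a further 48 h with Activin A (9 ng/mL), Wnt3a (25 ng/mL) and Noggin (150 ng/mL), given to induce primitive streak. Day 6 followed 48 h in basic FGF at 10 ng/mL, with Noggin, Wnt3a and Activin A removed. Days 0, 2 and 4 had 2 libraries each, called biological replicates in the labels, and day 6 had 1, labelled replicate 1. All libraries came from this 1 line, and whether the replicates were separate cultures is not stated, so p-values measure only the spread between these libraries. No culture kept without Activin A was analysed here, so time, medium and each added factor cannot be told apart.

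Definitive endoderm forms in the embryo when cells of the primitive streak receive strong Nodal signalling, and in culture Activin A, a ligand that uses the same receptors and Smad proteins, is given in place of Nodal. Sox17 and the forkhead factors of the Foxa family are transcription factors of the endoderm itself, while Gata4, Gata6 and Sox7 also serve the primitive, visceral and parietal endoderm that line the yolk sac and give rise to little of the gut. Hhex and Prdm1 act in anterior endoderm and in other lineages as well, Cxcr4 is a receptor used to sort definitive endoderm, and Trh encodes a hormone precursor. Because none of these genes belongs to endoderm alone, markers of the other tissues that use them are given beside the results.

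Values below are log2 levels, that is log2 of 1 plus scaled reads, in the libraries' common quantile-normalised scale, so a fold change understates the change of a low gene. The libraries held roughly 2730000 to 5400000 reads, and 3 reads gave a level of 1.45 to 2.30 depending on the library. A listed 0 may be a failed estimate: 387 genes had a listed 0 in some library although another gave a level of 5 or more, 35 of these between a day's replicates, and Gapdh, which every cell uses, ranged from 7.13 to a listed 0. In bulk RNA, fewer cells of a type and less RNA per cell cannot be told apart. Each change was tested with limma on all 7 libraries, with Benjamini-Hochberg adjusted p-values over the 21813 genes and a threshold of 0.05.

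Over the 4 days, 4 of the 9 genes passed limma's joint test of any difference between days, where 28.6% of all genes tested did. They were Cxcr4 (adjusted p = 0.00547), Foxa1 (adjusted p = 0.0125), Sox17 (adjusted p = 0.0231) and Trh (adjusted p = 0.00271). The same 4 were higher on day 4 than on day 0. Sox17 and Trh had their highest levels on day 4, Foxa1 and Cxcr4 in the day 6 library, and Hhex and Prdm1 on day 2. Gata4, Gata6 and Sox7 overlapped between days 0, 2 and 4, with replicate 2 above replicate 1 each time.

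**Figure D1:**
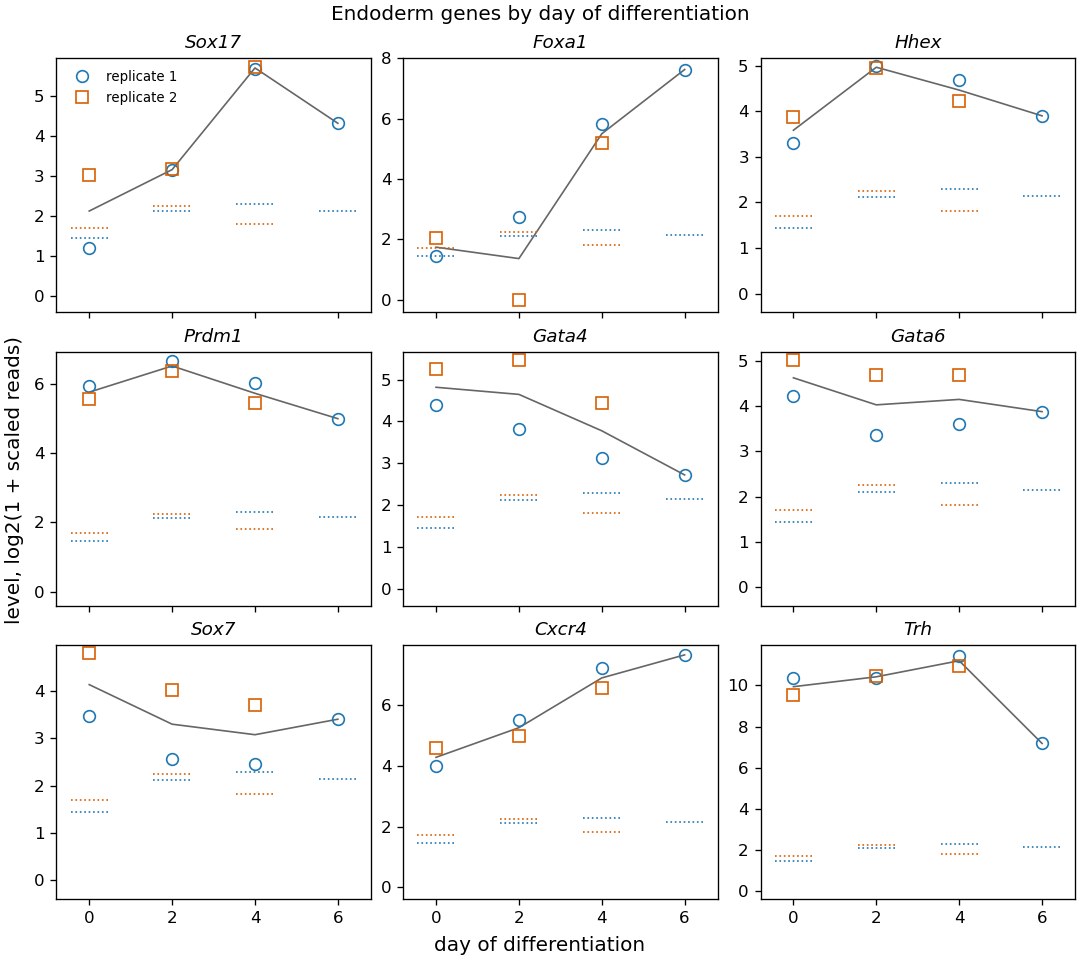
Level of each of the 9 genes, as log2 of 1 plus scaled reads, on days 0, 2, 4 and 6. Points are libraries, lines join the day means and dotted lines mark the level that 3 reads give in each library; Sox17 rises from 1.21 and 3.04 on day 0 to 5.69 and 5.74 on day 4, while Trh drops from 11.44 and 10.96 on day 4 to 7.18 on day 6.

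The promoters of Foxa1, Cxcr4, Prdm1 and Trh are shown because Foxa1 and Cxcr4 rose, Trh rose and then fell, and Prdm1 is a regulator whose level was highest on day 2. Hhex was a regulator highest on day 2 as well, but its promoter, which held no motif match, is not printed. RefSeq sequences for assembly GRCm38.p6 were matched by symbol for 5 of the 9 genes, these 4 and Hhex. Each run is the 250 bases before the RefSeq start, 5′ to 3′ on the gene's strand, with matches to the motifs searched in capitals. The windows lie at chr12:57546112-57546361 for Foxa1, chr1:128592300-128592549 for Cxcr4, chr10:44458749-44458998 for Prdm1 and chr6:92244651-92244900 for Trh, all on the minus strand. The Foxa1 and Prdm1 windows lie inside the GENCODE genes, which begin at 57546916 and 44528501 on that strand. Their RefSeq starts are thus downstream of the GENCODE ones, and motif positions are counted from the RefSeq start.
Foxa1: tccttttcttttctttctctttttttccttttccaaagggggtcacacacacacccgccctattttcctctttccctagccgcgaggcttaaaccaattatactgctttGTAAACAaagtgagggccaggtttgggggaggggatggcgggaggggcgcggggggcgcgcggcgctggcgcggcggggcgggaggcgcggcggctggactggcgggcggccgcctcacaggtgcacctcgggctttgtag
Cxcr4: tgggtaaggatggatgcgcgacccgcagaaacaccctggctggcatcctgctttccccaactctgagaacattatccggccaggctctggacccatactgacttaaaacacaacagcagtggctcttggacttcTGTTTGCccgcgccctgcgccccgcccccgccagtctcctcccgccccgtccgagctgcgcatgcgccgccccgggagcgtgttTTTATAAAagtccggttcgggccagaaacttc
Prdm1: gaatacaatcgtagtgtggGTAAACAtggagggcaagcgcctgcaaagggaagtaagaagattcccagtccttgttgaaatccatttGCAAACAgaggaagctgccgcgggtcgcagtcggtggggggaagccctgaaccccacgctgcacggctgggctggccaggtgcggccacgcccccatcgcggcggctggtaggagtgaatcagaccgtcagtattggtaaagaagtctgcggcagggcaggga
Trh: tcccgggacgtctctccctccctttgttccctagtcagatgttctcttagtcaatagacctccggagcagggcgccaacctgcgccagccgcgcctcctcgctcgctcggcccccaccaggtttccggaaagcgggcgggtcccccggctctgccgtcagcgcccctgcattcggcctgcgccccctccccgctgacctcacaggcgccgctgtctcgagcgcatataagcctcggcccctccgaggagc

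The motifs, searched on both strands, were forkhead (TGTTTAC or TGTTTGC), the GATA-factor motif (AGATAA or TGATAA), Sox (ACAATG or ACAATA), Foxh1 (TGTGNATT), T-box (AGGTGT), Smad (CAGACA), Tcf (CTTTGA) and a TATA box (TATAAA). A forkhead match stood in 3 of the 5 promoters and in 7.29% of the 32851 promoters of the same length. Foxa1 had it at positions -141 to -135 and Cxcr4 at -116 to -110, counted back from -1 at the base before the start, and Prdm1 had a pair, at -231 to -225 and -163 to -157. In Cxcr4 the capitals nearest the start are TATA matches on both strands that overlap each other, at -32 to -27 and -30 to -25, and 12.4% of promoters held one. In the windows of Trh and Hhex none of these letters was found. For the other motifs, the share of promoters with a match ran from 3.18% for Foxh1 to 17.4% for Sox. A match of 6 to 8 letters is a description of the sequence and not a binding site.

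Sox17, an SRY-box factor that acts early in definitive endoderm, lies on chromosome 1 at 4490931 to 4497354 on the minus strand of GRCm38. Its level was 1.21 and 3.04 at day 0, 3.16 and 3.18 at day 2, 5.69 and 5.74 at day 4 and 4.33 at day 6. Both day 4 libraries were above every other library, and the day 6 library lay between day 2 and day 4. The day 4 mean was 3.59 above that of day 0 on the log2 scale (SE 0.61, n = 2 and 2, limma adjusted p = 0.00872), a 12.0-fold difference. Against day 2 it was 2.55 higher (SE 0.61), which did not pass the test over all genes (limma adjusted p = 0.0768). The day 0 replicates differed by 1.83, the lower one standing at about 2 reads, so the size of the rise from day 0 ranged from 2.67 to 4.50 when 1 library was left out. Without day 4 replicate 1 or without replicate 2, the adjusted p against day 0 was above the threshold, up to 0.130.

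Foxa1 encodes a forkhead pioneer factor of endoderm, which also works in the floor plate and other tissues, and lies on chromosome 12 at 57540628 to 57546916, minus strand. Levels were 1.45 and 2.04 at day 0, 2.73 and a listed 0 at day 2, 5.82 and 5.18 at day 4 and 7.63 at day 6. The 4 libraries of days 0 and 2 rested on 0 to 5 reads each, and those of day 4 on 45 and 42. Day 4 was thus above both earlier days in every library, and day 6 was higher again, in 1 library of about 170 reads. The rise from day 0 to day 4 was 3.76 (SE 0.87, n = 2 and 2, limma adjusted p = 0.0254), and the difference of 4.14 between day 2 and day 4 had an adjusted p of 0.0578 in the same limma fit. That difference ranged from 2.77 to 5.50 when 1 library was left out, 2.77 without the day 2 library where Foxa1 is listed at 0 and 5.50 without the other day 2 library. Leaving out any 1 library of day 0 or day 4 put the adjusted p of the rise from day 0 above the threshold, at up to 0.301. Day 6 exceeded day 4 by 2.13 (SE 1.07, limma adjusted p = 0.275), which did not pass. Its relative Foxa2, which acts in the same endoderm and also in node, notochord and floor plate, was listed at 2.43 and 0.51 at day 0, 1.70 and 3.43 at day 2, 6.65 and 6.78 at day 4 and 7.47 at day 6. Foxa2 passed the test from day 2 to day 4 (4.15 higher, SE 0.78, limma adjusted p = 0.0441), a call lost without any 1 of the 6 libraries of days 0, 2 and 4, while Foxa3 was at 0 in 6 of the 7 libraries.

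Hhex, a homeobox repressor of anterior endoderm and later of liver and thyroid, lies on chromosome 19 at 37434810 to 37440731, plus strand. It stood at 3.30 and 3.87 at day 0, 4.99 and 4.94 at day 2, 4.69 and 4.23 at day 4 and 3.90 at day 6. The day 2 libraries were the highest and their gain over day 0 was 1.38 (SE 0.37, n = 2 and 2), just short of the threshold (limma adjusted p = 0.0598). The day 2 libraries were made from cells that had not yet received Activin A. Tle4, a Groucho co-repressor of the kind that Hhex recruits, fell by 1.08 from day 2 to day 4 (limma adjusted p = 0.00951), from 10.03 and 9.97 to 8.94 and 8.92. Tle3, another Groucho co-repressor, went the other way over that step, from 8.36 and 7.88 to 8.96 and 8.77, and did not pass the test.

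Prdm1, a zinc-finger repressor also called Blimp1 and used by anterior endoderm, visceral endoderm and primordial germ cells, lies on chromosome 10 at 44437177 to 44528501, minus strand. Its levels were 5.94 and 5.56 at day 0, 6.66 and 6.36 at day 2, 6.01 and 5.43 at day 4 and 4.99 at day 6. The day 2 libraries were again above all others. The differences were 0.75 for day 2 against day 0 (limma adjusted p = 0.163) and -0.79 for day 4 against day 2 (limma adjusted p = 0.190), and neither passed the test. Among 8 germ cell markers, summed scaled reads were 1195 to 1514 at day 0, 599 to 747 at day 2, 200 to 233 at day 4 and 132 at day 6. Ifitm3, which many cell types express, made up most of the day 0 sums: the other 7 summed to 258 to 314 on day 0, 371 to 436 on day 2, 114 to 157 on day 4 and 73.8 on day 6. From day 2 to day 4, 2 of the 8, Tfap2c and Ifitm3, passed the test as lower, beside 3.59% of all genes in either direction. The median difference over the 8 was -1.72, so the list was lower beyond these 2. Tfap2c went from 5.73 and 5.06 on day 2 to 0.88 and 0.25 on day 4. It was at 3.73 in the day 6 library, the 1 germ cell marker that passed as higher from day 4 to day 6. The part of germ cell markers in the level of Prdm1 was not tested.

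Gata4, a zinc-finger factor of endoderm and heart on chromosome 14 at 63198922 to 63271692, minus strand, had levels of 4.38 and 5.25 at day 0, 3.83 and 5.46 at day 2, 3.11 and 4.44 at day 4 and 2.72 at day 6. The day 6 value was the lowest of the 7, at about 5 reads, but the libraries of days 0, 2 and 4 overlapped. Day 6 had only a replicate 1 library, and replicate 1 was the lower one for Gata4 on each earlier day. Day 4 lay 1.04 below day 0 (SE 0.70, 95% interval -2.72 to 0.64, limma adjusted p = 0.372). Gata6, its relative on chromosome 18 at 11052064 to 11085635, plus strand, read 4.23 and 5.02, then 3.36 and 4.70, then 3.61 and 4.69, and 3.88 on day 6. Its day means stayed between 3.88 and 4.62, and no pair of days 0, 2 and 4 was separated. Sox7, an SRY-box relative of Sox17 that is typical of parietal endoderm and endothelium, lies on chromosome 14 at 63943673 to 63950732, plus strand. Its libraries gave 3.47 and 4.79 at day 0, 2.57 and 4.02 at day 2, 2.45 and 3.70 at day 4 and 3.40 at day 6. For Gata4, Gata6 and Sox7 alike no comparison passed the test, and the joint test had limma adjusted p-values of 0.254, 0.776 and 0.652. The 95% intervals for day 4 against day 2 were -2.55 to 0.81, -1.34 to 1.58 and -1.99 to 1.55.

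For these 3 genes the libraries of each day differed in the same direction by replicate number. Replicate 2 was above replicate 1 by 0.87, 1.64 and 1.32 for Gata4 on days 0, 2 and 4, by 0.79, 1.34 and 1.08 for Gata6, and by 1.32, 1.45 and 1.24 for Sox7. Sox17 also had the higher level in replicate 2 on all 3 days, by 1.83, 0.02 and 0.05, and Prdm1 the lower one, by -0.38, -0.30 and -0.58. So 4 of the 9 genes were higher in replicate 2 each time, where 9.84% of all genes tested were. This pattern was picked out after the values were seen and has no test. Markers of primitive and parietal endoderm did so in 6 of 10 cases and those of visceral endoderm in 6 of 13, against 0 of 10 neural markers, 6 of which were lower in replicate 2 on all 3 days. Cubn, an uptake receptor of visceral endoderm, was at 7.16 and 8.66 at day 0, 5.59 and 8.31 at day 2 and 5.14 and 7.07 at day 4. Dab2, its endocytic adaptor, was at 8.18 and 9.13, then 6.66 and 7.88, then 6.17 and 7.15. Over the 7 libraries Gata6 and Sox7 had Pearson's r of 0.94 and Spearman's rho of 0.96, Gata4 and Gata6 r of 0.80 and rho of 0.82, and Gata4 and Sox7 r of 0.74 and rho of 0.86, as a description of libraries that share their days and replicate numbers. The part of extra-embryonic endoderm markers in these levels was not tested.

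**Figure D2:**
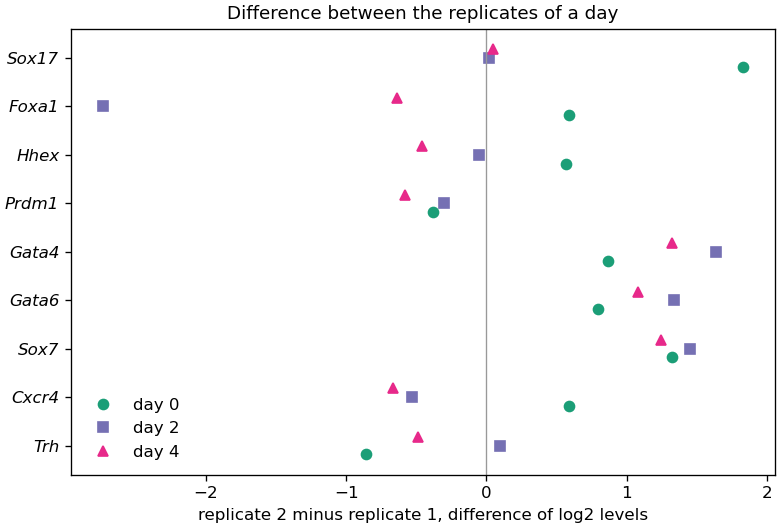
Replicate 2 minus replicate 1, as a difference of log2 levels, for each gene on days 0, 2 and 4 (circles, squares and triangles); the vertical line marks no difference. Gata4, Gata6 and Sox7 lie between 0.79 and 1.64 on all 3 days, and the square of Foxa1 at -2.73 is the library where it is listed at 0.

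Cxcr4, the chemokine receptor that guides migrating endoderm and is sorted for with antibodies, lies on chromosome 1 at 128588199 to 128592293, minus strand. Its level was 3.99 and 4.58 at day 0, 5.53 and 4.99 at day 2, 7.24 and 6.57 at day 4 and 7.66 at day 6. Each day was above the one before it in every library. From day 0 to day 4 it rose by 2.62 (SE 0.36, n = 2 and 2, limma adjusted p = 0.00381), a 6.14-fold difference, and from day 2 to day 4 the difference was 1.64 (SE 0.36, limma adjusted p = 0.0619). Without day 0 replicate 1, day 0 replicate 2 or day 4 replicate 1, the adjusted p of the first difference rose above the threshold, up to 0.107. Cxcl12, the ligand of Cxcr4, had a level of 8.41 and 8.92 on day 0 and 7.60 and 7.53 on day 2, and fell by 1.10 (limma adjusted p = 0.0403). It was then at 7.23 and 7.82 on day 4 and 6.84 on day 6. Feeder markers fell over the same step, with summed scaled reads over 12 genes of 37191 to 43545 on day 0 and 3128.5 to 4628.4 on day 2, and their part in the fall of Cxcl12 was not tested. Ackr3, the other receptor for that ligand, stood at 4.30 and 5.19 at day 0, 5.21 and 4.07 at day 2, 6.29 and 6.29 at day 4 and 7.34 at day 6, with no step between neighbouring days past the test (joint test, limma adjusted p = 0.0264).

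Trh, which encodes the precursor of thyrotropin-releasing hormone and is a known early endoderm transcript, lies on chromosome 6 at 92242061 to 92244650, minus strand. It was the most abundant of the 9 on days 0, 2 and 4, with levels of 10.37 and 9.51 at day 0, 10.37 and 10.47 at day 2, 11.44 and 10.96 at day 4 and 7.18 at day 6. Both day 4 libraries were the highest and the day 6 library was below all others. The rise from day 0 to day 4 was 1.26 (SE 0.29, n = 2 and 2, limma adjusted p = 0.0246). From day 4 to day 6 Trh fell by 4.02 (SE 0.35, limma adjusted p = 0.0114), 16.2-fold, a comparison of 2 libraries with 1 that is assumed to vary like the others. That fall lay between 3.78 and 4.27 without any 1 library, and the adjusted p was then 0.0502 to 0.168, above the threshold each time. The rise also lost its call without any 1 of the 6 libraries of days 0, 2 and 4, with adjusted p from 0.0847 to 0.263. Its receptors were almost unread: Trhr was at 0 in 5 of the 7 libraries and Trhr2 in 6. Pam, the enzyme that amidates the finished hormone, read 7.80 and 7.88 at day 4 and 8.80 at day 6, while the precursor-cleaving enzymes Pcsk1 and Pcsk2 stood at 4.48 and 4.64 on day 6.

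Seen step by step, the first 48 h without feeders brought no call among the 9 genes by limma, where 12.0% of all genes passed, and 3 of the 9 had an unadjusted p below 0.05, as did 26.9% of all genes. Sox17, Hhex, Cxcr4, Trh and Prdm1 were higher in both day 2 libraries than in both day 0 libraries, 5 of 9, a separation that 50.2% of all genes had in either direction. Over the 48 h with Activin A, again 0 of 9 passed limma's threshold and 3.59% of all genes did, while 5 of 9 had an unadjusted p below 0.05 (Sox17, Foxa1, Cxcr4, Trh and Prdm1), beside 21.6% of all genes. The libraries of days 2 and 4 did not overlap for 6 of the 9, with Sox17, Foxa1, Cxcr4 and Trh higher and Hhex and Prdm1 lower on day 4, against 42.9% of all genes. In the fit to days 2 and 4 only, 4 of 9 passed, and 5.34% of the genes in that fit. With any 1 library of days 0, 2 or 4 left out, that day rested on 1 library and no call remained for any gene. Without the day 6 library, 2 of the 9 passed, and 5.07% of the genes in that fit.

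After Activin A was removed, 1 of the 9 passed from day 4 to day 6, the fall of Trh, where 4.46% of all genes passed in either direction and 3.18% as lower. The day 6 library lay outside both day 4 libraries for 7 of the 9, as it did for 67.1% of all genes. Foxa1 and Cxcr4 were the 2 above, and Sox17, Hhex, Gata4, Trh and Prdm1 the 5 below. The day 6 library is a replicate 1, and Gata4 was at 2.72 there, beside 3.11 in day 4 replicate 1 and 4.44 in replicate 2. The part of replicate number in that difference was not tested. Across the whole span to day 4, Sox17, Foxa1, Cxcr4 and Trh were called, 4 of 9, all higher, where 21.7% of all genes were called and 11.3% as higher. For 5 of the 9, these 4 and Hhex, both day 4 libraries exceeded both day 0 libraries, a separation found in either direction for 57.3% of genes. The median difference over the 9 was 0.88 for day 4 against day 0, beside 0.00 over all genes tested, and -0.56 for day 6 against day 4, beside 0.00. These comparisons share libraries, so they do not support each other. Feeder markers were lower on day 4 than on day 0 in 12 of 12 cases, with sums of 2717.6 to 3419.9 on day 4, and their part in the 4 calls was not tested. The labels do not say whether day 0 RNA was taken with the feeders present.

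**Figure D3:**
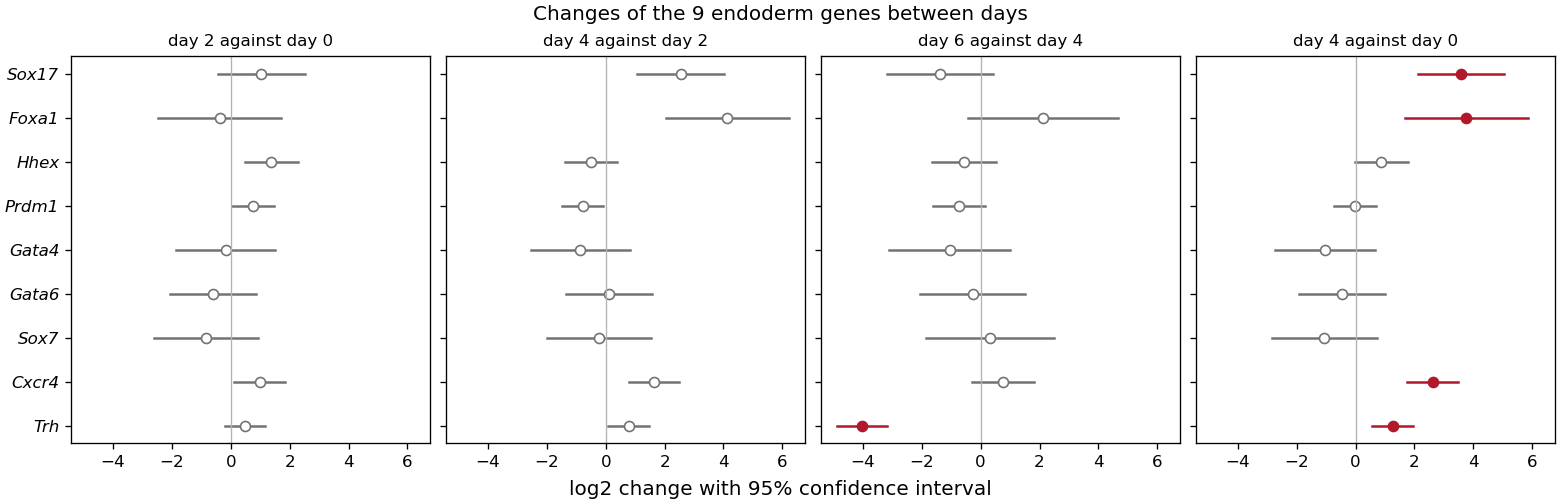
Difference in log2 level for each gene in 4 comparisons, with 95% intervals from the limma fit; filled points passed an adjusted p of 0.05. Sox17, Foxa1, Cxcr4 and Trh pass for day 4 against day 0, and Trh passes for day 6 against day 4 at -4.02.

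The order of the 9 genes by level per length, in scaled reads per kb of exonic sequence, changed with time. On day 0 Trh stood at 740 and the next was Cxcr4 at 10.4, whose libraries (8.23 and 12.7) overlapped those of Prdm1 (8.29 and 10.9), while Sox17 at 0.896 and Foxa1 at 0.728 were last. On day 4 Trh was at 1725, Cxcr4 at 67.4, Foxa1 at 13.7, Sox17 at 10.8 and Prdm1 at 9.46. The libraries of Foxa1 (10.6 to 16.7) overlapped those of Sox17 (10.6 to 10.96), which overlapped those of Prdm1 (7.55 to 11.4), so these neighbours did not differ beyond their spread. Hhex, Gata4, Gata6 and Sox7, at 4.22, 3.63, 2.76 and 2.49, overlapped as well and were at the bottom. In the day 6 library Cxcr4 (111) and Trh (104.0) stood close together at the top, Foxa1 was at 59.3, and Gata4 was last at 1.43. On days 0 and 2 Foxa1 was last of the 9, but its libraries (0.520 to 0.936 and 0 to 1.70) overlapped those of Sox17 (0.276 to 1.52 and 1.66 to 1.68).

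Other genes used for definitive endoderm formed a list of 20, of which 19 were tested. From day 2 to day 4, 5 of the 19 passed as higher and 0 as lower, with a median difference of 0.81. Of all genes, 3.59% passed over that step in either direction. The 5 were Cer1, a secreted Nodal, BMP and Wnt antagonist (5.12 higher, from 2.25 and 2.98 to 7.76 and 7.70), Foxa2, the LIM homeobox factor Lhx1 (3.61 higher), the keratin Krt19 (2.78 higher) and the protease Tmprss2 (2.75 higher). Day 4 against day 0 gave 10 of 19 higher and 0 lower, where 11.3% of all genes passed as higher. On day 6 Cer1 was at 4.51, and 1 of the 19 passed, the adhesion molecule Epcam, which fell by 1.48. From day 4 to day 6, 4.46% of all genes passed. Foxa3 was at 0 in both day 4 libraries, and Spink1 was not among the deposited rows.

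Genes of the Nodal pathway upstream of these factors, 15 in the list, were all above 0 in at least 1 day 4 library. From day 2 to day 4, 1 passed as higher, the effector Smad3 (1.52), and 3 as lower, the Nodal antagonists Lefty1 and Lefty2 and the co-receptor Tdgf1. Of all genes, 3.59% passed over that step. From day 4 to day 6, 5 passed as lower and 1, the receptor Acvr2a, as higher, and the median was -1.76. Among all genes 4.46% passed from day 4 to day 6, and 3.18% as lower. Nodal itself fell by 3.33 (limma adjusted p = 0.00657), from 6.75 and 6.92 to 3.51, and Foxh1, the forkhead partner of Smads, fell by 2.29. The other 3 were Tdgf1, Lefty1 and Mixl1, the last listed at 0 on day 6. Eomes, a T-box factor needed for endoderm, stood at 6.28 and 6.38 on day 4 and 3.06 on day 6, which did not pass. Of 10 later gut genes, Isl1 and Nkx2-1 passed as higher on day 6, by 4.50 and 3.67, and both also belong to neural tissue. Alb, Tff3 and Pdx1, markers of liver, gut lining and pancreas, were at 0 in both day 4 libraries. They were below the level of 3 reads in every library of any day, so their day 4 levels show no change.

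Other tissues that use some of the 9 genes were followed through their own markers. Notochord and floor plate markers, which share Foxa2 and Shh with endoderm lists, passed as higher in 5 of 10 cases from day 2 to day 4 (median 3.86). Of all genes, 3.59% passed over that step in either direction. Summed scaled reads of these markers were 51.5 to 73.4 on day 2, 785 to 1042 on day 4 and 1143 on day 6. Noto, a node and notochord factor, went from a listed 0 in each day 2 library to 5.79 and 4.13 on day 4, and stood at 2.72 on day 6. The list did not move as 1 group after day 4: 4 of its 10 genes, Noto, T, Chrd and Foxj1, were lower in the day 6 library than in both day 4 libraries, and 6, among them Shh, Nkx6-1 and Foxa2, were higher. Neural markers passed as higher in 4 of 10 cases from day 2 to day 4, with sums of 814 to 1115 on day 2, 2105 to 3281 on day 4 and 4229 on day 6. The part of notochord and neural markers in the levels of Foxa1, Foxa2 and Cxcr4 was not tested.

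Visceral endoderm markers summed to 471 to 806 on day 2 and 199 to 372 on day 4. Over that step 2 of the 13 tested passed, Rhox5 and Trf, both lower, beside 3.59% of all genes in either direction. The secreted proteins Afp, Apoa1 and Apoa4 were at 0 in both day 4 libraries and Ttr was at 1.20 and 1.34, below the level of 3 reads. Afp, Apoa4 and Ttr were at 2.12 or less in every library of any day, so their day 4 levels show no change. Of the list of 14, 6 were below 3 reads in both day 4 libraries. Others were well read there, among them Dab2 at 6.17 and 7.15, Rhox5 at 6.15 and 6.14 and Cubn at 5.14 and 7.07. Primitive and parietal endoderm markers were called in 9 of 10 cases from day 0 to day 2, 8 lower and 1 higher (median -1.91), where 12.0% of all genes were called. They summed to 3400 to 4644 on day 4. They include laminins and collagens that feeders also make, and feeder markers passed as lower in 11 of 12 cases over the first step. Cardiac and lateral plate markers, which would accompany Gata4 in mesoderm, had 8 of 10 genes below 3 reads in both day 4 libraries, among them Hand2, Nkx2-5 and Tnnt2 at 0. Of 12 blood and endothelial markers, 1 passed as higher, the VEGF receptor Flt1, and 1 as lower, Pecam1, from day 2 to day 4. Naive pluripotency genes passed as lower in 7 of 10 cases over that step.

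**Figure D4:**
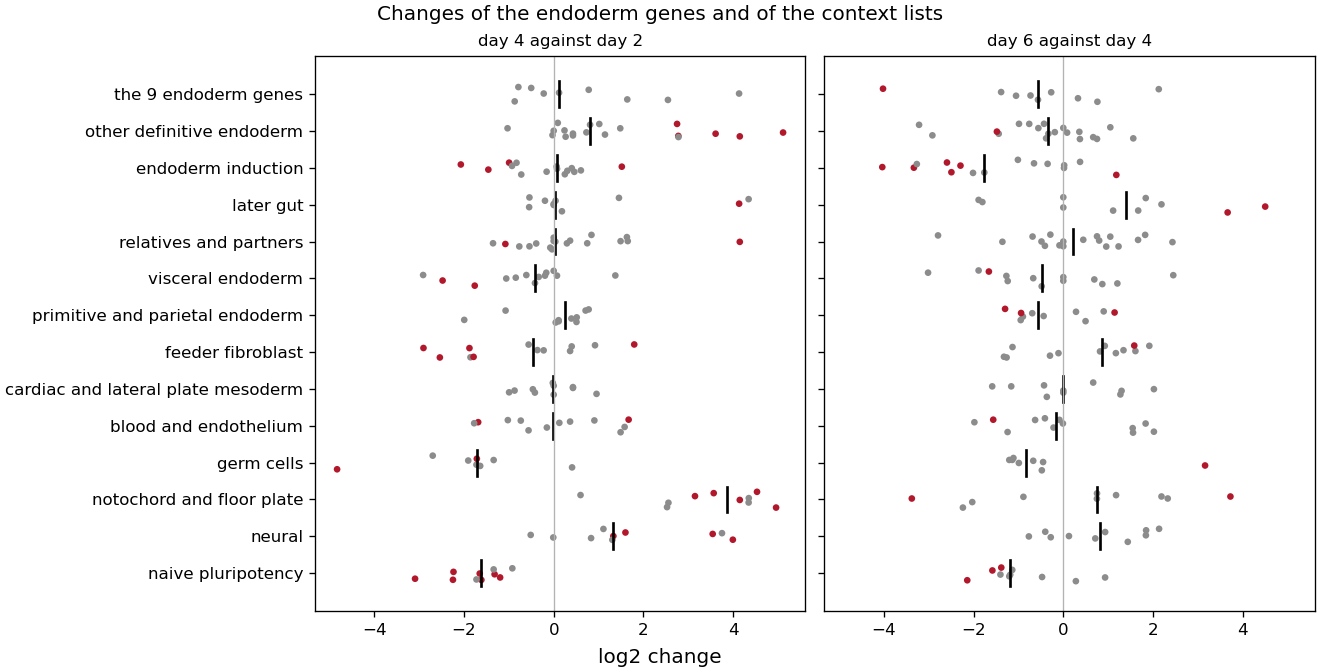
Difference in log2 level from day 2 to day 4 and from day 4 to day 6 for each tested gene of the 9 and of the marker lists. Points are genes, red where the adjusted p was below 0.05, and black bars are list medians; the notochord and floor plate median is 3.86 for day 4 against day 2, and the median of the induction list is -1.76 for day 6 against day 4.

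The genes whose levels over the 7 libraries followed the 4 called genes most closely differed for each. For Sox17 they were Chst1 (Pearson's r of 0.99), Npc1 (0.97) and Zfp787 (0.96), and for Foxa1 they were Plekha6 (0.99), Ackr3 (0.98) and Tollip (0.98). Cxcr4 was followed by Neo1, Elavl4 and Camk2n1, each with r of 0.99 or more; Elavl4 is a neuronal RNA-binding protein and went from 2.02 and 2.81 on day 0 to 9.76 on day 6. Trh was followed by Use1 (0.99), Acad10 (0.99) and Galnt12 (0.98). Some 10878 genes were compared with each, over 7 libraries that share their days, and the values describe likeness of pattern alone. Among the 9 genes themselves, r was 0.92 between Foxa1 and Cxcr4, 0.85 between Sox17 and Cxcr4 and -0.85 between Foxa1 and Gata4.

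In the GENCODE annotation 2 of the 9 overlap another gene. Sox17 overlaps Gm37587 and Gata6 overlaps 1010001N08Rik, both transcripts of the opposite strand, and whether counting used strand was not stated in the labels. The overlapping transcript of Gata6 was listed at 0 to 1.26.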

How the data were processed

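Polyadenylated RNA of 7 libraries was measured (days 0, 2 and 4 in duplicate, day 6 in 1 library). The authors deposited 1 table of 30590 rows and 7 value columns, and 0 columns were left unmapped. Each deposited value is a natural log of 1 plus scaled reads; this unit was inferred from the steps between low values and is not stated in the labels. Sorted columns agreed to 0.01 for the 9896 highest ranks, as quantile normalisation before deposit leaves them. The build is GRCm38 per the submitters' processing notes, while aligner, counting tool, annotation and strand setting were not given in the sources used here. Per the labels' protocols, a stranded mRNA kit was used.

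Values were divided by the natural log of 2. Left out were 103 rows that are not mouse genes (92 spike-ins and 11 reporter or selection sequences) and 8674 genes at 0 in every library, leaving 21813. limma 3.58.1 in R 4.3.3 was fitted with 1 mean per day, a mean-variance trend and robust moderation (residual degrees of freedom: 3) and a Benjamini-Hochberg adjusted threshold of 0.05. The fit was tested on simulated data. Rough depths and read numbers came from the height of the low steps. Lengths and positions came from GENCODE M21. The 9 genes and the marker lists were chosen with earlier results of these data known. All 9 genes are named; of each list up to 5 genes are named, first those past the threshold with the largest change from day 2 to day 4, then those called elsewhere, then the highest. Further genes named from a list, those named as at 0 and the replicate 2 examples were chosen after their values were seen. Genes most like a member are the 3 with the highest Pearson's r among those above 0 in all libraries with a mean of at least log2 of 11, leaving out predicted, ribosomal and histone genes. Alternatives were a filter on low values, a pseudocount of 10, other normalisation and moderation, fits to fewer days, a replicate block and leaving out each library.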

Additional observations from a re-analysis of the deposited data

How the results depend on the processing

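The main limit is the number of libraries. Each library of days 0, 2 and 4 was left out in turn, which left that day with 1 library. The number of the 9 genes called then ranged from 0 to 1 for day 2 against day 0. It stayed at 0 for day 4 against day 2 and for day 6 against day 4. For day 4 against day 0 and for the joint test it ranged from 0 to 3. The number of all genes called was then 0 to 691, 0 and 0 to 295 for the 3 steps, 163 to 4152 for day 4 against day 0 and 0 to 4181 for the joint test. Leaving out genes of low mean level gave 1 of the 9 for day 2 against day 0 and 3 for day 4 against day 2, with 1422 and 2200 of all genes called for day 4 against day 2 and day 6 against day 4, where 782 and 972 were called otherwise; the shares of genes called were 25.0%, 12.1% and 18.6% for the 3 steps. Of the 3 for day 4 against day 2, Sox17 and Foxa1 pass this filter only through their day 4 and day 6 levels, so their calls under it support nothing. A pseudocount of 10 gave 2 of the 9 for day 4 against day 2 and 2 for day 6 against day 4, with 702 and 959 of all 21813 genes called. Fits to only the days compared and without day 6 gave 4 and 2 for day 4 against day 2, with 5.34% and 5.07% of genes. Without trend and robust moderation, 1609, 335 and 609 of all genes were called for the 3 steps. Of the 9, 2 were called for day 4 against day 0, beside 16.6% of all genes, and 2 for the joint test, beside 19.6%. The cause was not tested.

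The deposited column names carry the same tag for all libraries of a replicate number. Over 11800 genes, deviations of same-numbered libraries correlated at -0.06 between days 0 and 2 and -0.07 between days 0 and 4. Between days 2 and 4 the correlation was 0.22, and whether same-numbered libraries are pairs was not settled by these values. With a replicate block 606 genes were called for day 6 against day 4. The joint test then called 5 of the 9, Prdm1 in addition (limma adjusted p = 0.0403), beside 23.3% of all genes. For day 6 against day 4 the block moved Gata4 from -1.05 to -0.42, Gata6 from -0.27 to 0.26 and Sox7 from 0.33 to 1.00. Foxa1 turned to 0.012 for day 2 against day 0 with a pseudocount of 10. Uncalled differences that changed sign without 1 library ranged, for day 2 against day 0, from -1.74 to 0.99 for Foxa1, -0.99 to 0.65 for Gata4 and -1.27 to 0.073 for Gata6; for day 4 against day 2, from -0.55 to 0.79 for Gata6 and -0.95 to 0.50 for Sox7; for day 6 against day 4, from -0.81 to 0.27 for Gata6 and -0.30 to 0.95 for Sox7; and for day 4 against day 0, from -1.02 to 0.063 for Gata6 and -0.32 to 0.26 for Prdm1. Over all settings of the 9 genes' comparisons, 398 values kept direction and side of the threshold, 14 newly passed, 23 no longer passed and 15 changed sign.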
